A study of Mus musculus with 12 samples.

Results

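Stimulation through NKG2D for 6 h was compared with no stimulation in wild-type natural killer (NK) cells, across all expressed genes. The libraries were chosen by their labels alone: 3 stimulated and 3 unstimulated wild-type samples, 6 of the 12 in the series. The other samples carried a deletion of Mirc11 (Mirc11-/-), a microRNA locus; they entered the statistical fit and are not described. All animals were of the C57BL/6 strain, and all cells were splenic NK cells expanded in IL-2 before RNA was taken. The unstimulated cells are labelled untreated, and the stimulated ones received NKG2D stimulation for 6 h. The study's design text calls the 3 samples of each group biological replicates. The labels give neither the NKG2D ligand or antibody, nor the age of the mice, nor whether IL-2 stayed in the medium during the 6 h. The unstimulated cells are therefore cytokine-expanded and not resting NK cells.

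NKG2D, encoded by Klrk1, is an activating receptor of NK cells that binds stress-induced ligands on infected or transformed cells. In the mouse it signals through the adaptor DAP10 (Hcst), which recruits phosphoinositide 3-kinase and Grb2 with Vav, and through DAP12 (Tyrobp), which recruits Syk-family kinases. Downstream, calcium, ERK and NF-kB signals lead to cytokine release and to killing by granule exocytosis. NK cells grown in IL-2 are large, cycling cells with a high rate of synthesis, since IL-2 drives STAT5, MYC and mTORC1.

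The wild-type libraries held 18892771 to 25342991 counts, and levels are given in CPM, counts scaled to a fixed library total after composition scaling. A count of 3 in a library, the least taken as detected, equalled 0.118 to 0.165 CPM. The 10 NK marker genes summed to 11366 to 13668 CPM in unstimulated and 8207 to 9610 CPM in stimulated libraries, mostly Gzmb and Prf1. The NK receptor genes Ncr1 and Klrb1c, whose levels are given below, were expressed in both groups. In this marker list 7 genes fell and 2 rose, and 3 fell with the vomeronasal covariate described below. T-cell receptor constant genes, which NK cells also transcribe, were present in both groups, with Trbc1 at 231 ± 24.8 and 230 ± 10.1 CPM (SD, n = 3 each). Of genes that define other cells, S100a9 had no count in any wild-type library and Lyz2 had at most 4, while Cd4 went from 0.103 ± 0.0218 to 1.07 ± 0.409 CPM and Cd6 from 0.179 ± 0.0542 to 2.2 ± 0.21. Cd4 and Cd6 were the only 2 of 11 T-cell markers called. That list summed to 314 to 417 CPM in unstimulated and 351 to 390 CPM in stimulated libraries, with a median log2 fold change of 0.09. B-cell markers summed to 57.1 to 71.9 CPM in unstimulated and 105 to 128 CPM in stimulated libraries, nearly all of it Ighm. Macrophage markers summed to 8.94 to 11.3 CPM before and 16.1 to 19.4 CPM after, and neutrophil and mast-cell markers to 26.4 to 30.5 and 69.9 to 105 CPM, mostly Kit. Dendritic-cell markers summed to 77.6 to 131 CPM before and 88.6 to 132 CPM after, and stromal and endothelial markers to 335 to 424 and 433 to 490 CPM, mostly Pecam1. In such bulk samples fewer cells of a type and less RNA per cell cannot be told apart. Whether a few such cells gave these reads was not tested.

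Stimulated libraries had counts on more genes, 28067 to 31773 against 22790 to 24175, and their vomeronasal receptor genes, 329 sensory genes with no known role in NK cells, summed to 17.2 to 29.6 CPM against 9.89 to 12.5. NKG2D replicate 1 was the highest in both respects, and also in Gm10800 and Gm26870, unannotated gene models at 19800 and 8290 CPM there against 239 to 344 and 162 to 245 CPM in the unstimulated libraries. Each result below was refitted with the vomeronasal level as a covariate, and the outcome is given where it moved a count of 3 or more by over 1.5 times, and for some smaller counts. Every stimulated library of the fit had a higher vomeronasal level than every unstimulated one. The covariate and stimulation therefore cannot be fully told apart, and a call lost or gained with the covariate does not show a cause. Mitochondrial genes held 15.2 to 16.4% of counts in stimulated and 12.3 to 13.2% in unstimulated wild-type libraries. The 10 highest genes of each library held 29 to 30% in stimulated and 24.8 to 26.4% in unstimulated ones. Reads of near-identical genes were also assigned differently in the groups. In 9 genes every library of one group had at most 2 counts and every library of the other had over 100, and 8 of these 9 shared over 50% of their 31-base words with another gene. Gm10925, a copy of the mitochondrial ATP synthase gene, was at 34025, 23545 and 31350 counts in unstimulated and 0 in all stimulated libraries, whereas mt-Atp6, sharing 99.5% of its words, rose from 45.7 ± 14.2 to 1750 ± 181 CPM. Added together the pair went from 1340 ± 52.8 to 1750 ± 181 CPM. The histone genes Hist1h2ap and Hist1h2ao exchanged reads in the same manner, and their sum went from 180 ± 13.1 to 114 ± 12.7 CPM. Treatment and read assignment cannot be told apart for such genes. Rpl10, with 36.9% of its words shared, went from 90.7 ± 5.81 to 849 ± 123 CPM and is counted among the uncertain ones.

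Of 17457 genes tested, 2814 (16.1%) were higher and 2745 (15.7%) lower after stimulation at an adjusted p under 0.05 by edgeR's quasi-likelihood test with Benjamini-Hochberg adjustment. The median log2 fold change over all tested genes was 0.02. Changes of at least 2-fold were more often rises: 1097 genes (6.28%) against 639 (3.66%). The filter on low counts passes genes with counts in 1 group only, and stimulated libraries had counts on more genes. How far this shaped the excess of rises was not tested. The balance depended on level. In the class of 16 to 64 CPM 17.7% were higher and 22.3% lower, and among 3383 genes under 1 CPM lower genes made up 4.46% and the median was 0.34. In the plot of change against level the falls are concentrated among well-expressed genes, and the diagonal streaks at low level are genes with no or few counts in 1 of the groups.

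**Figure D1:**
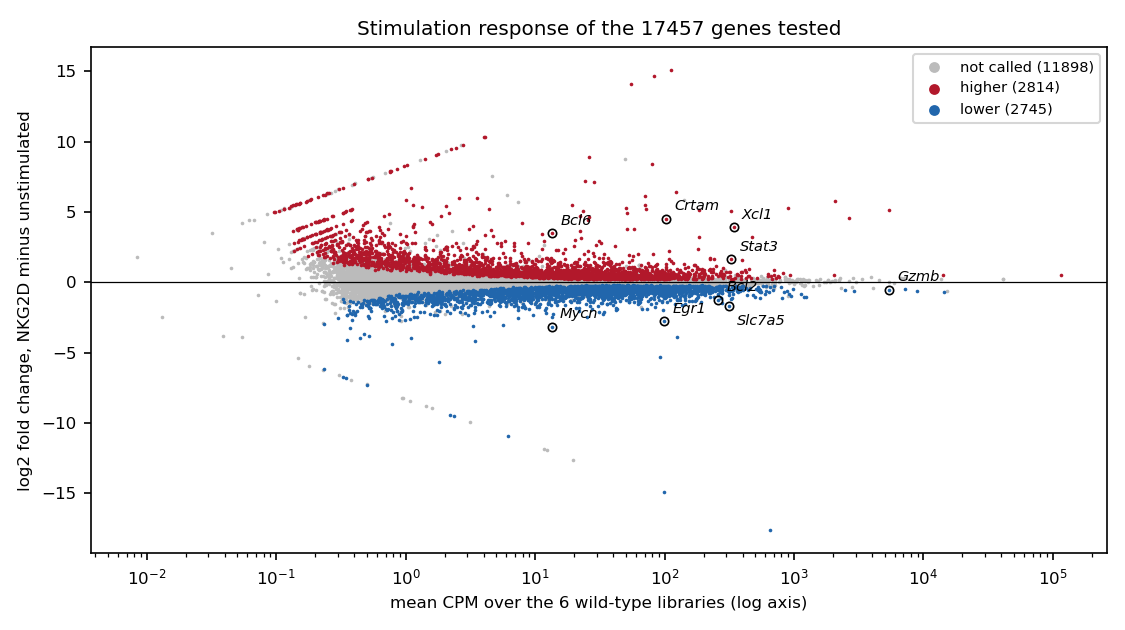
Change on stimulation against level for the 17457 genes tested; each point is a gene, with the mean CPM over the 6 wild-type libraries on a log axis and the log2 fold change (NKG2D minus unstimulated) on the y axis. Red points are the 2814 genes higher and blue the 2745 genes lower at an adjusted p under 0.05, and named genes are circled.

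The 15 largest rises among genes of at least 4 CPM, leaving out unnamed models and near-identical copies, spanned several functions. Chemokine and cytokine genes (Ccl1, Ccl9, Xcl1, Csf2, Ccl3) made up 5 of them. Most of the others were not secreted products. Arc, a neuronal immediate-early gene, was at 0.275, 0.11 and 0.281 CPM in unstimulated and 7.31, 9.07 and 9.45 CPM in stimulated libraries (log2 fold change 5.18, SE 0.28, adjusted p = 5.25e-08). Bend4, of a family of BEN-domain DNA-binding proteins, was at 4.75, 5.05 and 3.93 CPM before and 43.3, 40.7 and 39.2 CPM after (log2 fold change 3.17, SE 0.16, adjusted p = 2.7e-08). The groups of such genes do not overlap by the way they were chosen. In unstimulated replicate 2 Arc lay below the level of 3 counts. The rest were the receptors Crtam and Vipr2, the transcriptional regulators Bcl6 and Tcf7, the glucose transporter Slc2a6, the transporter-trafficking gene Tbc1d4, the stress gene Gadd45b and Rpl10, whose uncertainty is given above. The 15 largest falls included the transcription factor genes Mycn, Egr1, Fosb, Etv5 and Fos and the secreted factor genes Hbegf, Osm and Lif. They also held Lrp8, a lipoprotein receptor, which fell from 42.8 ± 8.02 to 7.88 ± 1.29 CPM (log2 fold change -2.44, SE 0.19, adjusted p = 1.23e-06). Bcar3, an adaptor that links receptor signals to Ras-family GTPases, fell from 12.6 ± 2.25 to 2.15 ± 0.368 CPM (log2 fold change -2.54, SE 0.21, adjusted p = 1.25e-06).

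Receptor genes moved in both directions. Of 194 genes in 11 receptor lists 165 passed the filter on low counts, and 43 of these (26.1%) were higher and 41 (24.8%) lower, against 16.1% and 15.7% of all genes. Level was not matched, and among all genes of 16 to 64 CPM 22.3% were lower. These lists also held signalling and ligand genes that are not receptors. They included 13 kinases and lipases (1 higher, 6 lower) and 8 adaptors of NKG2D signalling (0 higher, 3 lower). Others were 3 SLAM adaptors and 3 ligands of nectin-binding receptors (0 called in each). Ligand genes such as Icam1, Cd274 and Cd80 were listed with the receptors too. Per kilobase of exon, the 2 most abundant transcripts among the listed receptor genes were Tnfrsf9 (4-1BB) and Il2rb, the IL-2 and IL-15 receptor beta chain. In unstimulated cells they stood at 448 ± 70.7 and 397 ± 20.9 CPM per kilobase, a difference within the spread of Tnfrsf9, and in stimulated cells at 394 ± 54.6 and 400 ± 13. The next, Itgb2 at 140 ± 7.79 CPM per kilobase, was well below both. Below these the order changed with stimulation: Klrg1 went from 7th to 3rd and Ifngr1 from 13th to 6th among the listed receptor genes, whereas Klrb1c (NK1.1) went from 8th to 26th and Ncr1 from 12th to 23rd.

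The stimulated receptor itself changed little. Klrk1 (chr6:129610323-129623864, minus strand) was at 117, 128 and 96.7 CPM in unstimulated and 145, 148 and 134 CPM in stimulated libraries. The groups did not overlap, but the test passed only narrowly (log2 fold change 0.32, SE 0.12, adjusted p = 0.0473), and the adjusted p was 0.225 without unstimulated replicate 3 and 0.0744 with the vomeronasal covariate. The adaptor genes Hcst (14.7 and 15.4 CPM) and Tyrobp (376 ± 64.2 and 394 ± 19.3 CPM) did not pass the test, with log2 fold changes of 0.07 each. Of 13 kinases and lipases downstream 6 fell and 1 rose. Pik3cd, the catalytic phosphoinositide 3-kinase subunit of lymphocytes, was at 419, 420 and 394 CPM before and 218, 222 and 224 CPM after (log2 fold change -0.89, SE 0.08, adjusted p = 4.62e-06). Vav3, an exchange factor for small GTPases, fell from 92.9 ± 3.87 to 55.5 ± 1.16 CPM (adjusted p = 4.41e-06). Prkcq, protein kinase C theta, fell from 91.5 ± 5.69 to 59.5 ± 3.83 CPM, and Lck from 71.5 ± 3.37 to 48.2 ± 6.6 CPM (adjusted p = 4.88e-05 and 0.00146). In all, 9 of 22 tested genes of this pathway fell and 2 (Klrk1 and Plcg1) rose, with a median of -0.10; with the vomeronasal covariate 5 were lower, and neither rise passed without unstimulated replicate 3, NKG2D replicate 1 or NKG2D replicate 2. Plcg1 was low in every library, at 0.756 ± 0.171 and 1.65 ± 0.181 CPM, and missed the threshold without unstimulated replicate 2 (adjusted p = 0.0886).

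Among other NK receptors the Nkrp1 family split. Klrb1c (chr6:128778485-128789215, minus strand), the activating NK1.1 receptor, was at 271, 306 and 247 CPM in unstimulated and 109, 95 and 113 CPM in stimulated libraries. Klrb1b, the inhibitory member that binds Clr-b, was at 99.5, 120 and 81.9 CPM before and 258, 235 and 221 CPM after. No library of either group entered the range of the other group in these genes, and the changes were opposite in sign (log2 fold change -1.38, SE 0.12, adjusted p = 3.13e-06; and 1.24, SE 0.14, adjusted p = 2.82e-05). They share 21.2% and 30.8% of their 31-base words with other genes. Ncr1, the activating receptor NKp46, fell from 129 ± 4.7 to 65.5 ± 5.22 CPM (log2 fold change -0.98, SE 0.11, adjusted p = 2.01e-05). Klrg1, an inhibitory receptor for cadherins, rose from 136 ± 15.6 to 205 ± 4.99 CPM (log2 fold change 0.60, SE 0.17, adjusted p = 0.0152), though the adjusted p was 0.0684 without unstimulated replicate 3. Of 13 lectin-like and NKp46 genes 4 rose and 3 fell, with a median of 0.28; without unstimulated replicate 1 or 3, and without NKG2D replicate 1, the number of rises was 1, 1 and 2. None of the 10 Ly49 genes tested passed in either direction, and with the replicate block 3 were higher and 1 lower. Of the SLAM family, Cd244 (2B4) fell from 201 ± 12.5 to 129 ± 7.33 CPM and Ly9 from 29.1 ± 2.05 to 16.9 ± 2.56 CPM (adjusted p = 0.000175 and 0.000599).

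Receptors for nectins and nectin-like ligands moved in both directions. Crtam (chr9:40969691-41004628, minus strand), an activation-induced receptor for a nectin-like adhesion molecule, was at 8.24, 6.81 and 10.6 CPM in unstimulated and 151, 218 and 220 CPM in stimulated libraries (log2 fold change 4.51, SE 0.22, adjusted p = 5.9e-08). Cd96 rose from 97.4 ± 6.5 to 143 ± 5.26 CPM. The inhibitory Tigit and the activating Cd226 (DNAM-1), which share ligands, both fell, from 20.8 ± 3.52 to 11.4 ± 1.03 and from 10.7 ± 1.77 to 6.25 ± 1.6 CPM (adjusted p = 0.00217 and 0.00695). So 2 of 7 tested members rose and 2 fell, with a median of 0.56. The 4 receptors had a median of -0.11. The other 3 were ligands, none of them called, with a median of 1.11. Of these ligands Nectin1 and Nectin3 were barely detected, at 0.0407 and 0.0192 CPM per kilobase in unstimulated cells.

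Classical activation markers did not move together. Cd69, usually an early activation antigen, was at 201, 234 and 181 CPM in unstimulated and 58.5, 77.1 and 62.6 CPM in stimulated libraries (log2 fold change -1.64, SE 0.13, adjusted p = 1.06e-06). Cd44, the hyaluronan receptor, rose from 46.7 ± 3.44 to 104 ± 9.14 CPM, and the adhesion ligand Icam1 from 21.3 ± 0.965 to 55.9 ± 8.55 CPM (adjusted p = 3.48e-06 and 9.14e-07). Ctla4, a checkpoint receptor, was at 16.5, 20.1 and 14.9 CPM before and 64.7, 32.6 and 71.8 CPM after, with NKG2D replicate 2 nearest the unstimulated range (log2 fold change 1.72, SE 0.34, adjusted p = 0.00397). The collagen receptor Lair1 fell from 31.4 ± 1 to 14.4 ± 1.55 CPM (adjusted p = 4.31e-06). Of 16 checkpoint and activation genes tested 5 rose and 4 fell, with a median of 0.37. In the TNF receptor family Cd27, a costimulatory receptor that marks less mature mouse NK cells, rose from 5.75 ± 0.548 to 18.7 ± 2.92 CPM (log2 fold change 1.70, SE 0.17, adjusted p = 6.48e-06). Tnfrsf8 (CD30) fell from 157 ± 29.7 to 64.2 ± 16.6 CPM (log2 fold change -1.29, SE 0.21, adjusted p = 0.000589; 0.1 with the vomeronasal covariate). Tnfrsf9 was at 1220 ± 192 and 1070 ± 149 CPM and did not pass (adjusted p = 0.429). Of 15 genes in that list 5 rose and 3 fell, with a median of 0.23.

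Cytokine receptor genes rose more often than they fell, 10 against 4 of 30 tested, with a median of 0.15. With the vomeronasal covariate 5 were higher and 2 lower, and 6 were higher without unstimulated replicate 1 or 3. The interferon gamma receptor chain Ifngr1 was at 185, 230 and 173 CPM in unstimulated and 372, 329 and 335 CPM in stimulated libraries (log2 fold change 0.82, SE 0.13, adjusted p = 0.000367). Ifnar1, a chain of the type I interferon receptor, rose from 91 ± 4.44 to 130 ± 4.22 CPM, and Il10ra from 52.2 ± 4.1 to 118 ± 30.7 CPM (adjusted p = 0.000175 and 0.000158). Of the receptors for IL-2 family cytokines, the shared gamma chain Il2rg rose from 163 ± 7.84 to 243 ± 15.3 CPM (log2 fold change 0.57, SE 0.09, adjusted p = 0.000236). Il2rb stayed within the spread of its replicates (1700 ± 89.7 and 1720 ± 55.9 CPM). Il4ra fell from 141 ± 17.6 to 99.5 ± 7.28 CPM (log2 fold change -0.50, SE 0.11, adjusted p = 0.00352; 0.337 with the vomeronasal covariate). Il12rb1, a chain shared by the IL-12 and IL-23 receptors, was at 169, 195 and 160 CPM before and 68, 79.1 and 74 CPM after, without overlap (log2 fold change -1.25, SE 0.10, adjusted p = 1.64e-06). Its partner Il12rb2 did not pass, at 74.2 ± 4.58 and 83.6 ± 4.23 CPM (adjusted p = 0.195).

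Adhesion receptors moved in opposite directions within the integrin family. The leukocyte integrin LFA-1 consists of Itgal and Itgb2, and both chains fell, from 384 ± 21.2 to 243 ± 6.76 and from 428 ± 23.8 to 247 ± 10.2 CPM (log2 fold change -0.66 and -0.80, adjusted p = 0.000159 and 2.74e-05). Itga4 was at 133, 130 and 138 CPM before and 270, 245 and 261 CPM after (log2 fold change 0.96, SE 0.08, adjusted p = 1.35e-06). Itga1, a collagen-binding chain that marks tissue-type innate lymphocytes, rose from 144 ± 8.57 to 248 ± 21.6 CPM, Itgb3 from 290 ± 30.6 to 485 ± 22.7 CPM and Itgb1 from 376 ± 25.9 to 521 ± 36.3 CPM (adjusted p = 2.98e-05, 0.000316 and 0.00279). Itga2 (DX5 antigen), the other collagen-binding chain, fell from 7.34 ± 0.731 to 3.24 ± 0.134 CPM (adjusted p = 6.33e-05). In all 6 of 15 integrin genes rose and 3 fell, with a median of -0.07. Among migration receptors Gpr183, which senses oxysterols, rose from 6.14 ± 0.431 to 20.4 ± 2.43 CPM and the sphingosine-1-phosphate receptor S1pr4 from 26.7 ± 3.21 to 48.9 ± 4.85 CPM (adjusted p = 6.86e-07 and 0.000198). Cxcr4 was at 0.549, 0.44 and 0.241 CPM before and 6.43, 1.68 and 9.3 CPM after, so its level in stimulated cells was poorly fixed (log2 fold change 3.81, SE 0.60, adjusted p = 0.00053). In the chemokine and migration receptor list of 12, 4 rose and 3 fell, with a median of 0.36, and 1 was lower without unstimulated replicate 1, unstimulated replicate 2 or NKG2D replicate 3.

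Receptors for lipid mediators, nucleotides and peptides were mostly lower, 8 of 15 against 4 higher, with a median of -0.82. Ptger3 and Ptger4, receptors for prostaglandin E2, fell from 10.1 ± 0.889 to 1.22 ± 0.179 and from 42.1 ± 0.708 to 21.3 ± 2.01 CPM (log2 fold change -3.04 and -0.98, adjusted p = 1.53e-07 and 1.95e-06). P2ry14, a receptor for UDP-sugars, was at 94.3, 86.5 and 90.1 CPM before and 40, 34 and 31.4 CPM after, and P2ry10 moved the opposite way, from 82.5, 92.9 and 73.6 to 224, 189 and 187 CPM. Neither gene's groups overlapped (log2 fold change -1.36, SE 0.09, adjusted p = 3.92e-07; and 1.27, SE 0.13, adjusted p = 9.86e-06). The adenosine receptors split too: Adora2a rose from 16.6 ± 1.43 to 27 ± 1.9 CPM, and Adora2b fell from 8.88 ± 0.125 to 3.59 ± 0.801 CPM (adjusted p = 0.00027 and 6.94e-05). Vipr2 (chr12:116077726-116146261, plus strand), a receptor for vasoactive intestinal peptide, was at 0.471, 0.659 and 1.44 CPM in unstimulated and 7.54, 9.33 and 8.69 CPM in stimulated libraries (log2 fold change 3.28, SE 0.31, adjusted p = 4.41e-06).

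**Figure D2:**
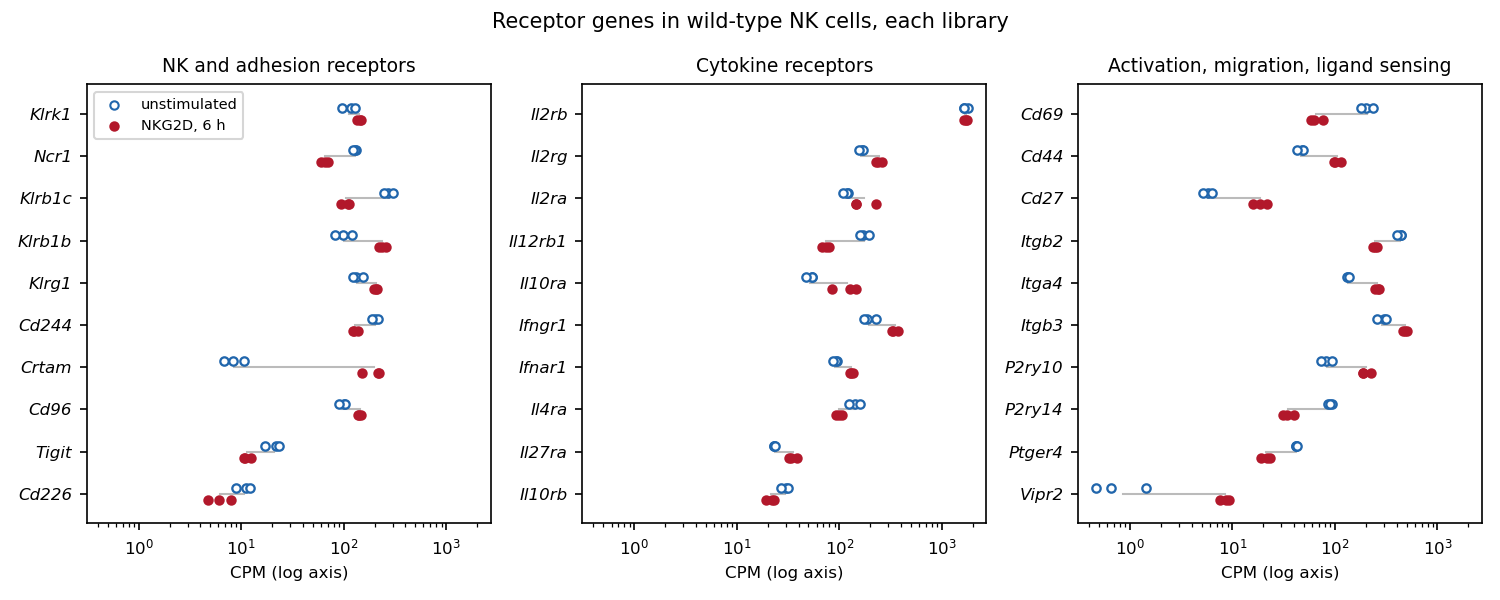
Levels of 30 receptor genes in each wild-type library, in CPM on a log axis; open blue circles are the 3 unstimulated and filled red circles the 3 stimulated libraries, with a grey line between group means. Crtam and Vipr2 show the widest gaps, Il2rb coincides in both groups, and Klrb1b and Klrb1c cross in opposite directions.

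Of 156 transcription factor and signal-regulator genes tested from 166 listed, 45 (28.8%) rose and 50 (32.1%) fell, against 16.1% and 15.7% of all genes. Level was not matched for these listed genes either. With the vomeronasal covariate 41 were higher and 31 lower. In the NK lineage list 12 of 39 rose and 11 fell, with a median of -0.07; with the vomeronasal covariate 5 were lower. The paired T-box factors of NK cells moved apart. Eomes was at 221, 215 and 220 CPM in unstimulated and 159, 179 and 168 CPM in stimulated libraries, and Tbx21 (T-bet) at 18, 18.1 and 16.9 and at 27.4, 28.5 and 33.5 CPM. In neither gene did the groups overlap (log2 fold change -0.37, SE 0.08, adjusted p = 0.00378; and 0.75, SE 0.10, adjusted p = 6.91e-05), but the fall of Eomes did not pass with the vomeronasal covariate (adjusted p = 0.223). Zeb2, which acts with T-bet in late NK maturation, rose from 34.9 ± 0.428 to 69.8 ± 5.59 CPM (SE of the log2 fold change 0.09, adjusted p = 3.89e-06). Runx3 fell from 191 ± 21.7 to 119 ± 11.4 CPM, and Hopx, a homeodomain protein induced by T-bet, from 62 ± 8.75 to 31 ± 1.58 CPM (adjusted p = 0.00261 and 0.000148).

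Several factors of the same list rose from low levels. Bcl6, a repressor best known from germinal-centre and follicular helper cells, was at 2.67, 1.87 and 2.12 CPM before and 28.1, 20.4 and 26.2 CPM after (log2 fold change 3.47, SE 0.17, adjusted p = 2.63e-08). Tcf7 (TCF-1) was at 1.84, 1.1 and 1.16 CPM before and 12.5, 11.8 and 6.96 CPM after (log2 fold change 2.91, SE 0.29, adjusted p = 9.86e-06). NKG2D replicate 3 was the lowest stimulated library for Tcf7 and NKG2D replicate 2 for Bcl6. Bach2, a repressor that limits effector differentiation, rose from 12.9 ± 0.453 to 28 ± 2.29 CPM and Ikzf2 (Helios) from 32.7 ± 7.75 to 130 ± 21.3 CPM (adjusted p = 3.61e-05 and 9.86e-06). Lef1, the close relative of TCF-1, went the other way, from 62.1 ± 1.97 to 46.4 ± 4.99 CPM (log2 fold change -0.42, SE 0.09, adjusted p = 0.00375). Irf4, which scales with antigen-receptor signal strength in lymphocytes, rose from 8.32 ± 1.22 to 56.3 ± 7.22 CPM (log2 fold change 2.76, SE 0.14, adjusted p = 3.32e-08). Hif1a, the oxygen-regulated factor, rose from 369 ± 44.1 to 514 ± 42.3 CPM (log2 fold change 0.48, SE 0.12, adjusted p = 0.00815). The abundant Irf8 (948 ± 61.5 and 958 ± 49.9 CPM) and Id2 (490 ± 59.1 and 446 ± 12.5 CPM) did not pass.

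Signal-induced factors were split by family at 6 h. Egr1 was at 164, 162 and 196 CPM in unstimulated and 22.4, 25.6 and 30 CPM in stimulated libraries, and Egr2 at 12.7, 11.9 and 11 and at 53.3, 74.1 and 87.4 CPM. These paralogs, both immediate targets of ERK and calcium signals, changed in opposite directions without overlap (log2 fold change -2.74, SE 0.15, adjusted p = 5.9e-08; and 2.59, SE 0.16, adjusted p = 1.53e-07). The orphan nuclear receptors rose together: Nr4a1 from 9.44 ± 1.71 to 38.2 ± 5.71 CPM, Nr4a2 from 50.3 ± 5.12 to 92.3 ± 14.4 CPM and Nr4a3 from 100 ± 9.29 to 166 ± 17.8 CPM. Of the 8 Egr and Nr4a genes 6 rose and 2 fell, with a median of 0.75; the second fall, Nab1 (adjusted p = 0.0335), was lost on leaving out any 1 library, with adjusted p up to 0.114 without NKG2D replicate 3. AP-1 genes included no rise and 8 falls among 13 tested, with a median of -0.64, and 5 falls with the vomeronasal covariate. Fos fell from 7.87 ± 0.495 to 1.82 ± 0.374 CPM and Fosb from 7.51 ± 0.46 to 1.43 ± 0.366 CPM, both low in all libraries. The more abundant Junb and Jund did not pass, at 172 ± 20.8 and 197 ± 23.6 and at 170 ± 10 and 148 ± 27.7 CPM.

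ERK feedback genes and ETS factors were lower in 12 of 21 cases and higher in 2, with a median of -0.45. The 11 feedback genes held 6 falls and 1 rise, as did the 10 genes listed as ETS factors. The rise among those 10 was Myb, which is not a member of the ETS family. Dusp6, the ERK phosphatase, was at 135, 145 and 129 CPM before and 48.2, 56.7 and 54.7 CPM after (log2 fold change -1.36, SE 0.09, adjusted p = 3.18e-07). Etv5, an ETS factor downstream of ERK, fell from 55.5 ± 3.42 to 11.6 ± 2.19 CPM and Spred2, a Ras-ERK inhibitor, from 38.5 ± 4.59 to 14.5 ± 1.23 CPM (adjusted p = 3.32e-08 and 1.21e-06). Dusp2, a nuclear phosphatase, and Myb were the exceptions that rose, from 102 ± 10.2 to 152 ± 22.8 and from 73.8 ± 3.61 to 118 ± 2.6 CPM (adjusted p = 0.00205 and 3.61e-05). Dusp5 was the most abundant of the list and did not pass, at 301 ± 28.5 and 295 ± 22.9 CPM.

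Stat3, Stat5a, Stat5b and Stat6 rose, and Cish, Socs2 and Pim2, known targets of STAT5, fell. Stat3 (chr11:100885098-100939540, minus strand) was at 161, 161 and 156 CPM in unstimulated and 475, 434 and 583 CPM in stimulated libraries (log2 fold change 1.65, SE 0.12, adjusted p = 5.21e-07). Its neighbour Stat5a, on the opposite strand, with its 3' end overlapping that of Stat3, was at 29.1, 25.7 and 28.5 CPM before and 74, 88 and 90.6 CPM after (log2 fold change 1.60, SE 0.10, adjusted p = 1.53e-07). As the strand setting of the counting is not given in the sources used here, reads in the overlap cannot be told apart. Stat5b rose from 51.4 ± 0.591 to 94.9 ± 8.46 CPM and Stat6 from 145 ± 6.18 to 221 ± 6.55 CPM (adjusted p = 2.09e-05 and 0.000202). By contrast the inhibitor Cish was at 49.8, 42.3 and 51.9 CPM before and 13.8, 23.8 and 13.3 CPM after (log2 fold change -1.50, SE 0.37, adjusted p = 0.0124; 0.0758 with the vomeronasal covariate). Socs2 fell from 18.6 ± 1.26 to 6.33 ± 1.09 CPM and the kinase gene Pim2 from 55.5 ± 1.09 to 13.1 ± 1.99 CPM (log2 fold change -1.56 and -2.09, adjusted p = 1.75e-06 and 8.1e-08). Of 15 genes in the list 6 rose and 5 fell, with a median of 0.25, and 2 were lower with the vomeronasal covariate.

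In the MYC network Myc and Mycn fell, and the antagonist genes Mxd4 and Mxi1 rose. Mycn (chr12:12936093-12941914, minus strand) was at 25.4, 25.5 and 21 CPM in unstimulated and 2.42, 3.52 and 2.24 CPM in stimulated libraries (log2 fold change -3.14, SE 0.19, adjusted p = 1.41e-07). Myc fell from 70.9 ± 4.06 to 34.4 ± 9.05 CPM (log2 fold change -1.04, SE 0.14, adjusted p = 8.08e-05). Mxd4 and Mxi1, which compete with MYC for its partner MAX, rose from 59.9 ± 3.89 to 145 ± 25.2 and from 5.04 ± 1.19 to 13.9 ± 5.23 CPM (adjusted p = 3.62e-06 and 0.00258). Of 12 genes 2 rose and 3 fell, with a median of -0.10; 5 were lower with the replicate block. Among calcium-responsive genes Nfatc2 fell from 67.2 ± 7.87 to 17 ± 1.47 CPM, whereas Nfatc1 and Nfatc3 did not pass (113 ± 8.49 and 107 ± 9.22, and 189 ± 8.15 and 182 ± 9.22 CPM). The store-operated calcium channel gene Orai1 rose from 5.85 ± 0.566 to 16.4 ± 2.41 CPM and the endoplasmic calcium sensor gene Stim2 from 17.9 ± 1.31 to 35 ± 2.02 CPM (adjusted p = 1.14e-05 and 1.99e-06). That list of 16 held 4 rises and 4 falls, with a median of -0.04.

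**Figure D3:**
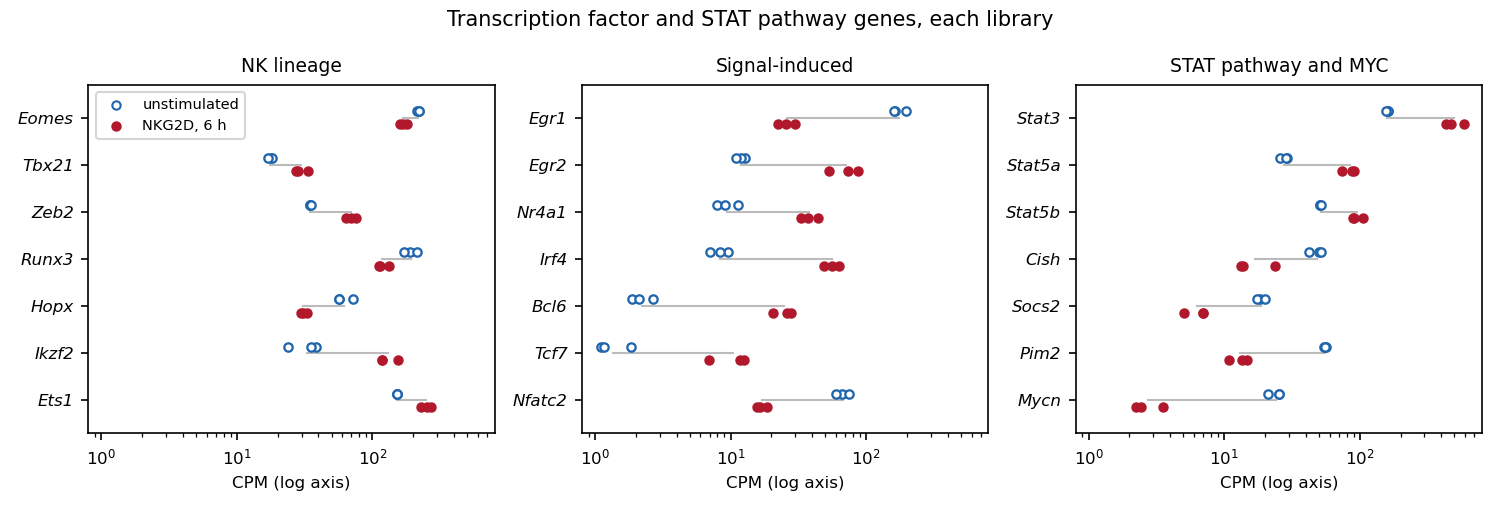
Levels of 21 transcription factor and STAT pathway genes in each wild-type library, in CPM on a log axis; open blue circles are unstimulated and filled red circles stimulated libraries, with a grey line between group means. Egr1 and Egr2 cross, Stat3 and Stat5a rise while Cish, Socs2 and Pim2 fall, and Eomes and Tbx21 move apart.

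NF-kB genes, many of which are targets of NF-kB itself, rose in 8 of 11 cases and fell in 1, with a median of 0.91. The inhibitor Nfkbia was at 25.3, 27.7 and 22.9 CPM before and 58.1, 75.5 and 69.7 CPM after, and the subunit Rel at 49.5, 34.4 and 56.4 and at 77.9, 86.9 and 98.8 CPM. Every stimulated library was above every unstimulated one in both (log2 fold change 1.42, SE 0.12, adjusted p = 1.29e-06; and 0.91, SE 0.19, adjusted p = 0.00374, or 0.172 with the vomeronasal covariate). The one fall was Nfkbiz, from 40.9 ± 2.17 to 27.6 ± 1.72 CPM (adjusted p = 0.000767). The 250 bases before the transcription start were searched on both strands for the kappaB element, to which NF-kB dimers bind, in RefSeq promoters (GRCm38.p6). It was present in 1.41% of 32851 windows and 1.73% of 10734 tested genes, and in 3 of the 8 NF-kB genes with a matched promoter, namely Nfkb2, Nfkbia and Rel. Promoters of the last 2 genes are shown 5' to 3' in the direction of transcription, with the element in capitals: chr12:55492648-55492897 (minus strand) for Nfkbia and chr11:23770970-23771219 (minus strand) for Rel. The elements begin 29 and 91 bases before the start; a match is a sequence description and not evidence of binding.
Nfkbia: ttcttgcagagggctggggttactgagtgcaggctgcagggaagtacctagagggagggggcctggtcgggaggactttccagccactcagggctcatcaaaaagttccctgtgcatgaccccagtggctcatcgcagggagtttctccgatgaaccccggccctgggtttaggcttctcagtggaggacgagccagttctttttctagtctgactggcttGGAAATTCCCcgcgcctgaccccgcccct
Rel: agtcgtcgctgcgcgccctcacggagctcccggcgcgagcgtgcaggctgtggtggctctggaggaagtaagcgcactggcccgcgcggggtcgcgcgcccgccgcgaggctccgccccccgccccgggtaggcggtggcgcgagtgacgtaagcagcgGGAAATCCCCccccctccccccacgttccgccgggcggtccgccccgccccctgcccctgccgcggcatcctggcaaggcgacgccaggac

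Falls outnumbered rises among metabolic genes. Of 373 tested from 381 listed, 31 (8.31%) were higher and 137 (36.7%) lower, with a median of -0.17, against 16.1% and 15.7% of all genes. With the vomeronasal covariate, which overlaps with stimulation, 56 were higher and 58 lower, so the excess of falls was not seen in that fit. Among 24 glycolysis genes 2 rose and none fell, with a median of 0.13. Pfkfb3, which makes the activator of phosphofructokinase, was at 12.2, 9.89 and 11 CPM in unstimulated and 27, 30.2 and 31.9 CPM in stimulated libraries (log2 fold change 1.42, SE 0.10, adjusted p = 4.75e-07). Pdk2, a kinase that inhibits pyruvate dehydrogenase, rose from 1.16 ± 0.251 to 4.26 ± 0.223 CPM (adjusted p = 2.93e-05). Abundant enzymes did not pass: Gapdh was at 1470 ± 296 and 1710 ± 96.9 CPM, Pkm at 1130 ± 155 and 1130 ± 164, and Ldha at 759 ± 105 and 660 ± 90.8. For several of them the stimulated replicates disagreed. Hk2, the inducible hexokinase, was at 106, 105 and 110 CPM before and 53.3, 52.3 and 96.6 CPM after, and Slc2a1 (GLUT1) at 113, 122 and 101 and at 115, 73.6 and 191 CPM, NKG2D replicate 3 being highest in both. Neither passed (adjusted p = 0.114 and 0.794). With the vomeronasal covariate 5 glycolysis genes were higher, and without NKG2D replicate 3 a count of 2 were lower (1 without NKG2D replicate 2).

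Sugar transport changed through less familiar members. Slc2a6 (GLUT6; chr2:27021363-27027998, minus strand) was at 1.77, 2.14 and 1.88 CPM before and 19.2, 24 and 19.6 CPM after (log2 fold change 3.44, SE 0.18, adjusted p = 3.32e-08). Tbc1d4, which controls GLUT4 vesicle traffic, rose from 0.74 ± 0.37 to 7.49 ± 1.43 CPM (log2 fold change 3.34, SE 0.29, adjusted p = 2.08e-06). The glucose-uptake inhibitors Txnip and Arrdc4, targets of a glucose-sensing factor, rose from 291 ± 35.7 to 539 ± 69.6 and from 18.3 ± 3.03 to 48.8 ± 5.61 CPM (adjusted p = 0.000122 and 3.42e-06). Slc16a6, of the monocarboxylate transporter family, fell from 115 ± 7.07 to 31.2 ± 3.32 CPM (log2 fold change -1.88, SE 0.09, adjusted p = 2.63e-08). The list of 14 held 4 rises and 2 falls, with a median of 0.18, and 6 rises and 1 fall with the vomeronasal covariate. Of 7 pentose phosphate genes none rose and 2 fell, with a median of -0.16: Rpia, which makes ribose 5-phosphate for nucleotides, from 56.6 ± 1.71 to 23.8 ± 3.42 CPM, and Pgd from 67 ± 1.69 to 51.1 ± 3.53 CPM (adjusted p = 1.23e-06 and 0.00311; 0.132 with the vomeronasal covariate for Pgd).

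Amino acid transport and use fell broadly. Of 15 transporter genes 10 fell and none rose, with a median of -0.57. Slc7a5 (LAT1; chr8:121881150-121907694, minus strand), the main importer of large neutral amino acids, was at 460, 496 and 471 CPM in unstimulated and 111, 167 and 164 CPM in stimulated libraries (log2 fold change -1.69, SE 0.14, adjusted p = 1.62e-06). Slc7a1, for cationic amino acids, fell from 244 ± 13.9 to 111 ± 19.6 CPM and Slc38a2, for glutamine and other neutral ones, from 244 ± 2.41 to 148 ± 6.84 CPM (adjusted p = 1.81e-05 and 7.1e-06). In serine and one-carbon metabolism 10 of 13 fell and none rose, with a median of -0.77, and 5 were lower with the vomeronasal covariate. Shmt1 fell from 21.4 ± 1.68 to 8.36 ± 1.47 CPM and Mthfd1 from 72.8 ± 5.71 to 37.7 ± 6.74 CPM (adjusted p = 1.38e-05 and 6.58e-05). Nucleotide synthesis genes fell in 17 of 25 cases and rose in 1, with a median of -0.43; 9 were lower with the vomeronasal covariate and 11 without NKG2D replicate 1. Rrm2, the S-phase subunit of ribonucleotide reductase, fell from 55.2 ± 9.59 to 23 ± 1.63 CPM and Cad, which starts pyrimidine synthesis, from 135 ± 16.5 to 73.7 ± 9.2 CPM (adjusted p = 3.34e-05 and 0.0001). In the glutamine, aspartate and polyamine list 8 of 17 fell, with a median of -0.38, and 2 with the vomeronasal covariate. Its rise was Sat1, the enzyme that acetylates spermidine and spermine for export, at 122, 135 and 95.4 CPM before and 382, 308 and 418 CPM after (log2 fold change 1.65, SE 0.19, adjusted p = 5.62e-05).

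Genes of the ATF4 and unfolded-protein responses fell in 17 of 28 cases and rose in 2, with a median of -0.52, and aminoacyl-tRNA synthetases fell in 16 of 21 and rose in 1, with a median of -0.50. The rise was Fars2, from 13.3 ± 0.828 to 16.1 ± 1.18 CPM (adjusted p = 0.0436), and it was lost on leaving out any 1 library. Yars was at 115, 128 and 120 CPM before and 53.4, 70.8 and 72.1 CPM after (log2 fold change -0.88, SE 0.11, adjusted p = 4.05e-05), and Iars fell by 0.83 on the log2 scale (adjusted p = 1.24e-05). Sesn2, a leucine sensor induced by ATF4, fell from 69.3 ± 2.24 to 38.8 ± 3.41 CPM and the endoplasmic chaperone gene Hsp90b1 from 764 ± 40.1 to 439 ± 40.6 CPM (adjusted p = 2.93e-05 and 0.000119). Atf4 itself did not pass, at 395 ± 71.5 and 313 ± 34.9 CPM (adjusted p = 0.158). Both counts moved in the fit with the vomeronasal covariate, where 2 of the response genes and 3 of the synthetases were lower.

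The C/EBP-ATF response element TGATGNAA, to which ATF4 dimers bind, was searched in the same promoter windows. It was found in 3.45% of all windows and 2.64% of tested genes, in 5 of 25 matched response genes, in 3 of 13 synthetases (23.1%: Aars, Gars and Tars) and in none of 10 serine and one-carbon genes. Chac1, a glutathione-degrading enzyme, fell from 27.4 ± 4.89 to 13.3 ± 3.86 CPM (adjusted p = 0.00344; 0.46 with the vomeronasal covariate). Its promoter (chr2:119350992-119351241, plus strand) and that of asparagine synthetase, Asns (chr6:7693210-7693459, minus strand), are shown because they carry the element, in capitals, on opposite strands. Asns went from 211 ± 29.3 to 143 ± 18.2 CPM (adjusted p = 0.0308), and passed in 2 of the 6 fits that left out a library.
Chac1: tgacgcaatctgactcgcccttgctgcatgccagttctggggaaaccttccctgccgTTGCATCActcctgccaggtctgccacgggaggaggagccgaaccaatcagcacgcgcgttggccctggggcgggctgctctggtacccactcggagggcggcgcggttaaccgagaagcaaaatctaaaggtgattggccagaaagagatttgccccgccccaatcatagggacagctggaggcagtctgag
Asns: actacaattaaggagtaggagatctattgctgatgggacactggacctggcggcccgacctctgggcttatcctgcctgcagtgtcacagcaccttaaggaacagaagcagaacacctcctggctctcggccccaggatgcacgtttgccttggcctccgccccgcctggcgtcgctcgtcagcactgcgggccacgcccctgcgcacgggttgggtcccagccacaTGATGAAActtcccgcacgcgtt

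Of 30 genes of sterol synthesis and uptake 24 fell and none rose, with a median of -0.92, and 18 were lower with the vomeronasal covariate. Acat2, which acts at the start of the pathway, fell from 35.2 ± 4.2 to 8.72 ± 0.507 CPM and shares 43.7% of its 31-base words with other genes. Lss (chr10:76531588-76557138, plus strand), which closes the sterol ring, was at 109, 107 and 97.9 CPM before and 26, 28.5 and 31.1 CPM after (log2 fold change -1.87, SE 0.09, adjusted p = 2.63e-08). In the opposite direction Abca1, the cholesterol exporter induced by liver X receptors, was at 14.7, 14.4 and 11 CPM before and 60.9, 51.6 and 52.1 CPM after (log2 fold change 2.04, SE 0.14, adjusted p = 2.8e-07). The 7 efflux genes held 4 rises and 2 falls, with a median of 0.39, but 1 rise without unstimulated replicate 3, 2 without NKG2D replicate 1 or 2, and 2 with the vomeronasal covariate. The number of falls was 0 with that covariate or without NKG2D replicate 1, and 1 on leaving out any 1 unstimulated library or NKG2D replicate 2.

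Most of these promoters carried CCAAT, the NF-Y element that sterol regulatory factors work with: 19 of 21 matched sterol genes (90.5%), against 40.2% of tested genes and 33.8% of all windows. The strict sterol response element TCACNCCAC was present in 1 of the 21, Hmgcs1, and in 1.24% of tested genes. Hmgcs1, which makes the precursor of mevalonate, fell from 680 ± 87.8 to 323 ± 50.2 CPM (log2 fold change -1.07, SE 0.15, adjusted p = 0.000123). Its promoter (chr13:119690101-119690350, plus strand) is shown with that element in capitals.
Hmgcs1: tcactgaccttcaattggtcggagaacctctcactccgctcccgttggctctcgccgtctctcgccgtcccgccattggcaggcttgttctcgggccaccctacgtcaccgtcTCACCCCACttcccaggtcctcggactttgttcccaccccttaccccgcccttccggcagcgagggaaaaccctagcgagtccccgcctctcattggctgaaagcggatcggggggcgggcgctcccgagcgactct

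Fatty acid synthesis genes fell in 9 of 14 cases and none rose, with a median of -0.57; 4 were lower with the vomeronasal covariate. Fasn, fatty acid synthase, was at 408, 363 and 450 CPM in unstimulated and 124, 171 and 151 CPM in stimulated libraries (log2 fold change -1.45, SE 0.12, adjusted p = 1.92e-06). Elovl6, which lengthens its product, fell from 50.8 ± 2.59 to 22.2 ± 2.16 CPM (adjusted p = 4.06e-07). Fatty acid oxidation was mixed, with 4 of 13 higher, 3 lower and a median of 0.20. Cpt1a, the enzyme that admits long-chain fatty acids to mitochondria, was at 58.9, 61.9 and 52.2 CPM before and 108, 99.4 and 103 CPM after (log2 fold change 0.85, SE 0.08, adjusted p = 8.41e-06), and the carnitine carrier gene Slc25a20 rose from 19.2 ± 0.799 to 30 ± 2.47 CPM. With the vomeronasal covariate 9 oxidation genes were higher and none lower. In the citric acid cycle 7 of 26 fell and none rose, with a median of -0.15, and 2 fell with the covariate. Idh3a went from 49.1 ± 5.11 to 29.8 ± 2.21 CPM (adjusted p = 0.000118), whereas Sdha stayed at 108 ± 3.59 and 109 ± 7.1. Nuclear genes of the respiratory chain hardly changed, with 1 of 72 higher, 1 lower and a median of -0.02. With the vomeronasal covariate 17 were higher, and with the replicate block 2 were higher and 4 lower.

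**Figure D4:**
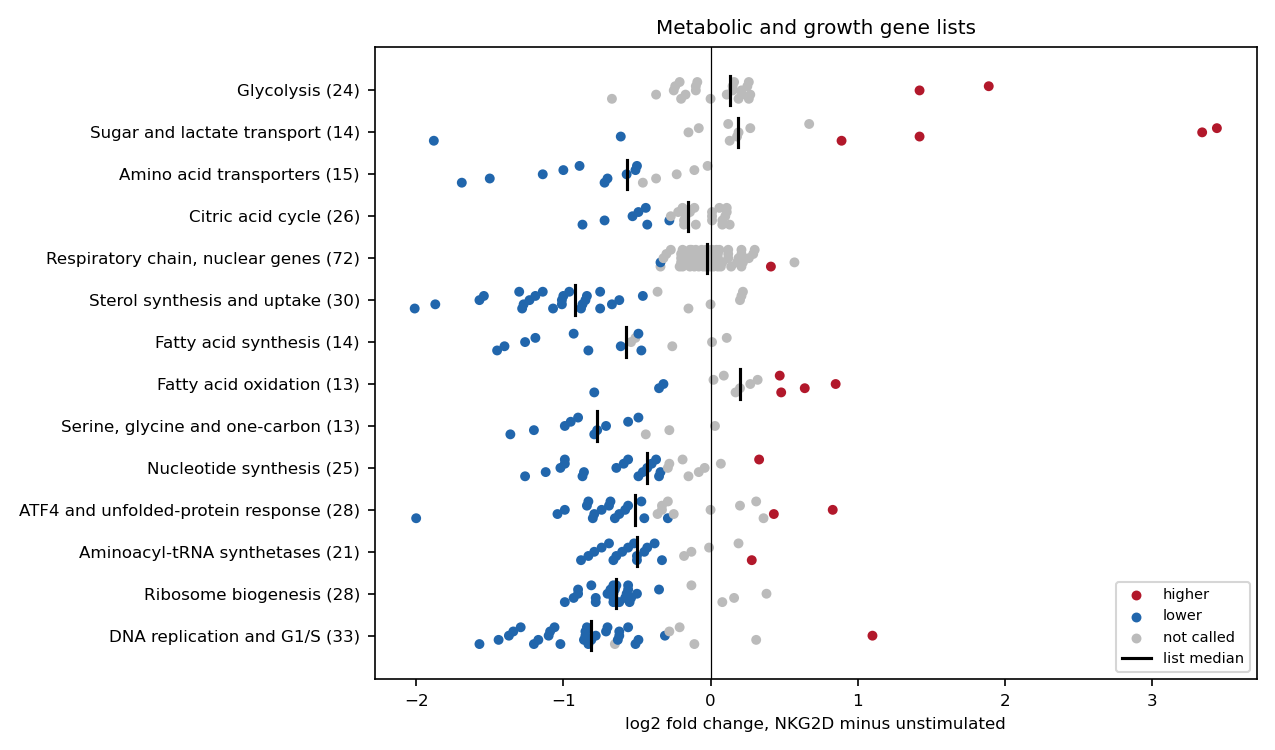
Log2 fold change (NKG2D minus unstimulated) of each tested gene in 14 metabolic and growth lists, with the number tested in brackets; red points are higher, blue lower and grey not called at an adjusted p under 0.05, and the black bar is the list median. Sterol synthesis (24 of 30 lower) and ribosome biogenesis (24 of 28 lower) lie left of 0, and the respiratory chain is centred on it.

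Of 243 growth and division genes tested 15 (6.17%) rose and 72 (29.6%) fell, against 16.1% and 15.7% of all genes. The balance turned with the vomeronasal covariate, with 78 higher and 31 lower, and 58 of the 78 were ribosomal protein genes. All 24 of the 28 ribosome biogenesis genes that passed were lower, with a median of -0.64, and 9 with the vomeronasal covariate. Mybbp1a, a nucleolar regulator, was at 207, 199 and 214 CPM before and 88.2, 118 and 107 CPM after (log2 fold change -0.99, SE 0.10, adjusted p = 5.9e-06), and Polr1b, a subunit of RNA polymerase I, fell from 56.5 ± 0.817 to 30.3 ± 5.75 CPM. The ribosomal protein genes did not follow: 6 of 84 rose, Rpl10 among them, and 2 fell, with a median of 0.16. Many have near-identical copies, and 58 were higher with the vomeronasal covariate, 3 without unstimulated replicate 1 or 3 or NKG2D replicate 2. Of 33 genes of DNA replication and the G1/S transition 27 fell and 1 rose, with a median of -0.81. Ccnd2, cyclin D2, was at 463, 453 and 435 CPM in unstimulated and 191, 258 and 183 CPM in stimulated libraries, and the inhibitor Cdkn1b (p27) at 37.2, 39.9 and 33.2 and at 83.7, 63.6 and 89.5 CPM. The groups did not overlap in either gene (log2 fold change -1.09, SE 0.13, adjusted p = 4.25e-05; and 1.1, SE 0.13, adjusted p = 2.74e-05). Among mitotic genes in the unblocked fit, 3 of 21 lower with a median of -0.42 (1 without unstimulated replicate 3 or NKG2D replicate 2, 5 without unstimulated replicate 2). None was lower with the vomeronasal covariate, 9 were in a fit of the wild-type libraries alone, and 16 were lower once replicate number was a block. With that block Mki67 and Top2a, both at a log2 fold change of -0.42, passed (adjusted p = 0.0049 and 0.00304).

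Of 22 survival and death genes tested 8 rose and 5 fell, with a median of 0.10, and with the vomeronasal covariate 10 rose and 2 fell. Bcl2, the mitochondrial survival protein maintained by IL-15 in NK cells (chr1:106538178-106714274, minus strand), was at 366, 381 and 348 CPM before and 142, 171 and 155 CPM after (log2 fold change -1.23, SE 0.09, adjusted p = 8.78e-07). Its antagonist Bcl2l11 (BIM) was at 153, 160 and 152 CPM before and 297, 295 and 292 CPM after (log2 fold change 0.93, SE 0.09, adjusted p = 4.28e-06). Among other members, the inhibitor-of-apoptosis gene Birc2 rose from 47.1 ± 5.85 to 95.6 ± 6.21 CPM (adjusted p = 9.83e-06). The survival genes Bcl2a1b and Bcl2a1d, NF-kB targets, also rose, from 16 ± 1.61 to 41.6 ± 6.22 and from 19.8 ± 2.76 to 50.5 ± 7.54 CPM; they share 88.8% and 89.1% of their words with other genes, so which copy rose cannot be said.

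In the class listed as effector genes 41 of 114 tested (36.0%) rose and 18 (15.8%) fell, against 16.1% and 15.7% of all genes. With the vomeronasal covariate 6 fell. The class is broad, and level was not matched. Besides cytokine, killing and secreted factor genes it holds 25 ubiquitin and TRAF6 pathway genes (10 higher, 1 lower). It also holds 23 interferon-stimulated genes (1 higher, 2 lower) and 13 class I antigen presentation genes (5 higher, 2 lower). The cytokine and chemokine list held 14 rises and no fall among 17 tested, and its members have a median of 1.62. Ifng, the main macrophage-activating cytokine of NK cells, was at 40.2, 39 and 35.6 CPM in unstimulated and 143, 221 and 176 CPM in stimulated libraries, without overlap (log2 fold change 2.24, SE 0.17, adjusted p = 1.35e-06). Granule and exocytosis genes of the killing machinery were divided, 7 of 26 rising and 8 falling, with a median of 0.02. The falls were fragile: 2 remained as a count without NKG2D replicate 1, 3 without unstimulated replicate 2, 4 without unstimulated replicate 1, 5 without NKG2D replicate 2 or 3, and 1 with the vomeronasal covariate. Srgn, the proteoglycan that packs granzymes, rose from 326 ± 39.1 to 531 ± 28.9 CPM, and Stx11, a syntaxin needed for granule fusion, was at 33, 39.8 and 31.8 CPM before and 55.7, 64.6 and 62.3 CPM after (log2 fold change 0.81, SE 0.11, adjusted p = 0.000127). Among class I antigen presentation genes Nlrc5, their transactivator, fell from 93.5 ± 11 to 31.6 ± 5.48 CPM (log2 fold change -1.56, SE 0.17, adjusted p = 2.3e-05). B2m, the invariant light chain, rose from 772 ± 165 to 1090 ± 147 CPM (adjusted p = 0.0311; 0.14 without unstimulated replicate 3 and 0.0678 with the vomeronasal covariate). That list of 13 held 5 rises and 2 falls, with a median of 0.16; the number of rises was 0 without unstimulated replicate 3 or NKG2D replicate 1, 1 without NKG2D replicate 2, and 3 without unstimulated replicate 1 or NKG2D replicate 3.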

How the data were processed

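RNA of wild-type and Mirc11-/- NK cells, unstimulated or stimulated for 6 h, was sequenced from polyA libraries (12 libraries, 3 per group). The deposited values are expected counts per gene, estimated by the authors with RSEM 1.3.0 after alignment with Bowtie2 2.2.8 to GRCm38; reads were demultiplexed with bcl2fastq and trimmed with Trim Galore 0.4.1, per the submitters' processing notes; all values are whole numbers, and the annotation release and strand setting are not given in the sources used here. Genes were matched to GENCODE vM21 (17411 of 17457 tested). Of 50674 genes, 42168 had a count and 17457 passed edgeR's filterByExpr.

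The test was edgeR 4.0.16 (R 4.3.3), a robust quasi-likelihood fit of all 12 libraries with 1 mean per group, TMM scaling and Benjamini-Hochberg adjustment over all genes tested at 0.05. The groups share 1 estimate of the spread, with a biological coefficient of variation of 15% and 8 residual degrees of freedom. Tested on simulated counts for this comparison (16522 genes), the fit recovered 28.4% of 1.5-fold, 59.7% of 2-fold and 75.8% of 4-fold changes, and 6.84% of its calls were false. Only 67, 67 and 66 genes were changed at these folds, far fewer than were called in the data. The simulated libraries held no replicate pairing and no shift of background, so these rates need not hold for the reported calls. CPM values use the TMM-scaled library sizes.

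Deviations of libraries with the same replicate number went together (r of 0.21, 0.43 and 0.28 over 10799 genes of at least 4 CPM, against -0.29 to 0 for different numbers). Deviations from a group's own mean cancel out, so the negative values follow in part from the positive ones. The numbers may therefore pair the libraries, which the labels do not state. The main test used no pairing, and a fit with a replicate block is given where it moved a result. Alternatives were DESeq2 1.42.0, limma 3.58.1 (voom), other scalings and filters, wild-type libraries alone, leaving out each library, and 2 settings chosen after seeing the data: the summed CPM of vomeronasal genes as a covariate, and near-identical genes left out.

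The genes and lists were chosen with earlier results of these data known. Genes were named by rule: the 15 largest rises and 15 largest falls among called genes of at least 4 CPM whose groups do not overlap; in each list up to 6 called genes of smallest p and the 3 of highest level; the 10 genes of highest CPM in unstimulated cells; and Klrk1, Hcst, Tyrobp, Ifng, Myc, Hif1a and Slc2a1. Further genes fall outside this rule and were picked with their values in view: Gm10800, Gm26870, Gm10925, Hist1h2ap, Hist1h2ao, Plcg1, Ctla4, Il4ra, Il12rb2, Adora2a, Adora2b, Runx3, Hopx, Lef1, Cish, Nfatc1, Ldha, Hk2, Atf4, Chac1, Asns, Sdha, Cdkn1b, Bcl2a1d and Cbl. Many genes chosen by the naming rule, among them most of the 10 highest in unstimulated cells, are not described. Promoter sequences are from RefSeq (GRCm38.p6).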

Additional observations from a re-analysis of the deposited data

How the results depend on the processing

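The number of genes higher in stimulated wild-type cells (2814) and genes lower in stimulated wild-type cells (2745) ranged over 16 settings from 1996 and 1868 with the vomeronasal covariate to 3113 without a filter on low counts and 3250 without composition scaling; leaving out 1 library gave 2010 to 2494 and 1921 to 2438. DESeq2 called 2775 and 2818 genes, limma voom 2878 and 2814, and the replicate block, which pairs libraries by number, 2948 and 3010. Among genes of the lists, 175 were higher (138 to 174 without 1 library, 252 with the vomeronasal covariate) and 318 lower (157 with the covariate, at most 301 without 1 library). Of 427 named genes 329 were called, 285 to 311 without 1 library; with the covariate 83 lost and 13 gained a call, and the cause was not tested. With that covariate 7 named genes reversed in log2 fold change: Dusp5 to 0.46, Cs to 0.0, Cox5a to 0.08, Rps27l to 0.01, Rpl27 to 0.02, Gzmb to 0.05 and Vmn1r58 to -0.7. The replicate block ended 1 call among named genes (mt-Rnr2, adjusted p = 0.068) and added 9 (Klra8, Itpr3, Mlxip, Phgdh, Calr, Mki67, Top2a, Kif11 and mt-Rnr1); it changed no other call of a named gene. Some list counts of 2 or fewer also moved: the Ly49 genes held 2 rises with the vomeronasal covariate or without unstimulated replicate 2, 1 pentose phosphate gene was lower with the covariate, and the 2 falls among ribosomal proteins were lost without unstimulated replicate 2 or NKG2D replicate 1 or 3. Genes with near-identical copies could not be separated at any depth, and 3 counts per library, 0.118 to 0.165 CPM, set the limit of detection.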

Other observations

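Several gene lists that are part of the class counts above, but were not described there, also moved. Of 25 genes of ubiquitin editing and the TRAF6 pathway 10 rose and 1 fell, with a median of 0.17. Tnfaip3 (A20), a deubiquitinating inhibitor of NF-kB, was at 163, 155 and 138 CPM in unstimulated and 334, 332 and 371 CPM in stimulated libraries (log2 fold change 1.19, edgeR adjusted p = 3.19e-06). Traf1 rose from 101 ± 7.99 to 241 ± 13.5 CPM, and the ubiquitin ligase gene Cbl fell from 220 ± 19.3 to 130 ± 5.8 CPM (edgeR adjusted p = 3.18e-07 and 0.00126). In the mTORC1 and nutrient-sensing list 6 of 17 rose and 2 fell, with a median of 0.08; 3 rose with the vomeronasal covariate. Flcn, a subunit of the lysosomal folliculin complex, went from 24.4 ± 0.676 to 39.2 ± 1.64 CPM.

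Klf10, a TGF-beta-inducible repressor, rose from 19.6 ± 2.98 to 56.8 ± 9.46 CPM (log2 fold change 1.53, edgeR adjusted p = 6.94e-06). Smad7, the feedback inhibitor of TGF-beta signalling, was at 10.4, 9.5 and 10.6 CPM before and 16.9, 21.3 and 19.7 CPM after, whereas the signal transducer Smad3 fell from 28 ± 1.64 to 20.3 ± 1.6 CPM (edgeR adjusted p = 0.000137 and 0.00573). Of the secreted and growth factor genes 4 of 11 rose and 5 fell (3 with the vomeronasal covariate). Osm, an IL-6 family cytokine, fell from 50.4 ± 10 to 11.6 ± 3.23 CPM and Flt3l, a growth factor for dendritic cells, from 59.6 ± 6.4 to 29.4 ± 2.4 CPM (edgeR adjusted p = 2.74e-05 and 1.62e-05). Penk, which encodes the enkephalin precursor, was at 0.0392, 0 and 0.0401 CPM in unstimulated and 1.26, 2.65 and 2.08 CPM in stimulated libraries.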
